A study of Homo sapiens with 3 samples.

Results

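RNA recovered from lysate of J82 cells by the alanine mutant of ZFP36L1 was compared with RNA recovered by glutathione S-transferase (GST) alone. J82 is an established human bladder cancer cell line. The GST pull-down used the protein tag with no RNA-binding protein attached, and the mutant pull-down used the same tag fused to ZFP36L1-Ala, which the labels call the Ala mutant. These are 2 of the 3 libraries of the study, taken by their labels, and the other is a pull-down with GST fused to wild-type ZFP36L1. All came from J82 cells grown to 90% confluence and lysed in a buffer for extracting protein, so the proteins met the RNA in lysate. The labels name neither the residues replaced by alanine nor a crosslinking step. The comparison asked which RNA the mutant recovered beyond the background of the tag.

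Each pull-down is 1 library with no replicate, and no p-value is given. The GST library held 19137867 estimated counts and the mutant library 19153483. Of 52989 genes matched in the tables, 14130 averaged at least 10 estimated counts over both libraries, and these were compared. Just inside that limit were AC068647.1, with 7 counts for GST and 13 for the mutant, and AC092070.1, with 8 and 12. CRYAA, with 11 and 9, and ELAVL2, with 13 and 7 as rounded, lay just outside it, because their estimates are fractions that average slightly under 10. The deposited GST table carries another run and lane code than the mutant and wild-type tables, so sequencing run and protein cannot be told apart. J82 showed the intermediate filament mRNAs of both an epithelial and a mesenchymal cell: KRT18 had 12980 counts for GST and 20794 for the mutant, and VIM had 41484 and 29118. Of 18 urothelial and epithelial markers 7 were measured, among them PPARG, a regulator of urothelial differentiation (416 and 553), FOXA1 (26 and 37) and UPK1A (20.8 and 23.8). KRT5, KRT13, KRT19, KRT20, TP63 and UPK3A had 0 counts in both libraries, and UPK2 (6 and 5) and GATA3 (2 and 1) had few. EPCAM (11 and 3) and CDH1 (6.9 and 13.1) were also low. Of 11 mesenchymal markers 7 were measured, among them ZEB1 (499 and 263) and CDH2 (186 and 109). TWIST1 had 0 counts in both libraries, and SNAI2 (7 and 7), COL1A2 (1 and 1.01) and THY1 (2 and 0) had few.

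ZFP36L1 belongs to the ZFP36 family, also called the tristetraprolin family. Its tandem zinc fingers bind AU-rich elements in the 3′ untranslated region (3′ UTR) of mRNAs, with UAUUUAU as the core site, and it recruits enzymes that remove the poly(A) tail and so shorten the life of the mRNA. Classic targets are mRNAs of cytokines, chemokines and early response genes. GST itself is an enzyme used as an affinity tag, and RNA recovered with it alone is the background of such a pull-down.

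The sites that such binding would use are shown for 5 known targets of the family, because the results turn on whether these mRNAs differed between the mutant and the tag. Each line gives 30 bases of the 3′ UTR from GENCODE 29, 5′ to 3′, with UAUUUAU in capitals, overlapping copies included. The CSF2 window lies at chr5:132076069-132076098 on the plus strand, that of TNF at chr6:31578000-31578029 on the plus strand, and that of CXCL2 at chr4:74097589-74097618 on the minus strand. The PTGS2 window lies at chr1:186674323-186674352 on the minus strand and that of CCL20 at chr2:227817271-227817300 on the plus strand (GRCh38).
CSF2: uauuuuuaaaaUAUUUAUUUAUUUAUUUAU
TNF: uUAUUUAUUAUUUAUUUAUUAUUUAUUUAU
CXCL2: agucuucUAUUUAUUUAUUUAUUUAUUUAU
PTGS2: aagucuaaugaucaUAUUUAUUUAUUUAUa
CCL20: uaaaguuaaacuguauuuuauguUAUUUAU
The whole 3′ UTR held 8 sites in TNF and in CXCL2, 7 in CSF2 and in PTGS2, and 1 in CCL20.

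The ratio of mutant to GST was taken on the log2 scale with libraries scaled by TMM, the trimmed mean of M values. A gene counted as higher or lower had a ratio of at least 2-fold and an exact 95% interval, covering counting error only, that excluded 1. By that rule 1188 genes (8.41%) were higher with the mutant, 809 (5.73%) were lower, and 14.1% were one or the other. Most genes lay close together: the median absolute log2 ratio was 0.43, the middle 50% of genes ran from -0.41 to 0.45, and 63.2% were within 1.5-fold. The wild-type library, set against the same GST library by the same rule, had 24.9% of 13875 genes higher and 33.9% lower, 58.8% in all, with a median absolute log2 ratio of 1.25. The counting interval excluded 1 for 8624 of the 14130 genes (61.0%). For the others the ratio was not distinguishable from 1 at this depth, and the spread between repeat pull-downs was not measured. The ratios compare shares of a library, and a smaller share cannot be told apart from less RNA. The split of the calls moved with the scaling: scaling to total counts gave 1000 higher (7.08%) and 1003 lower (7.1%). The deposited TPM gave 573 and 727 by an unlike rule, with 0.5 added to each TPM and no counting interval. Those 2 numbers therefore do not show scaling alone. Totals that omit mitochondrial genes, ribosomal RNA and the 20 genes with most counts gave 861 (6.09%) and 1160 (8.21%).

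**Figure D1:**
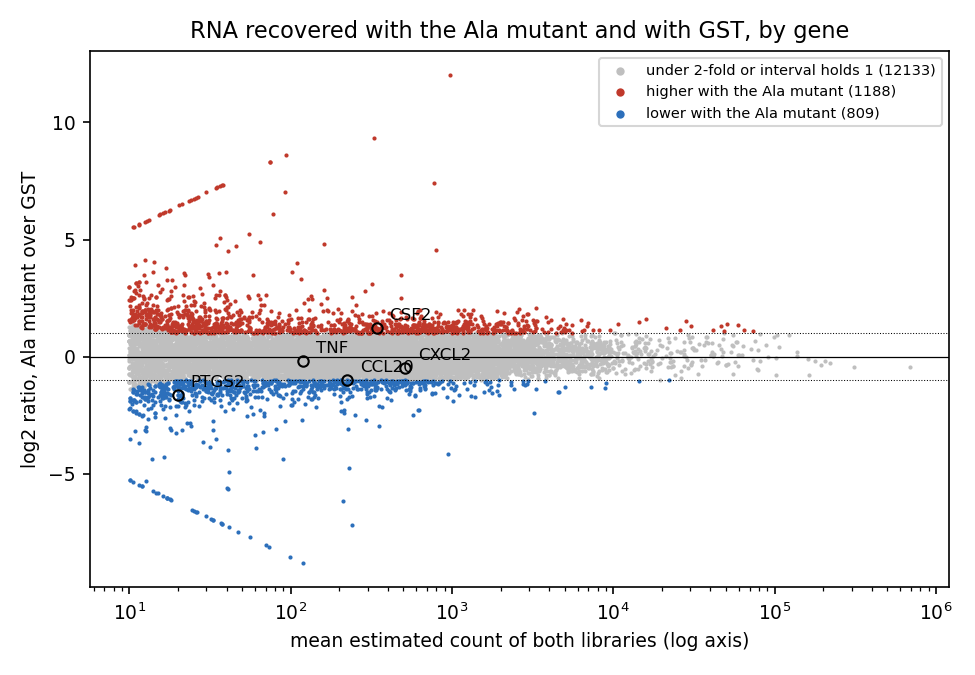
Each point is 1 of 14130 genes, with the mean estimated count of the GST and Ala mutant libraries on a log axis and the log2 ratio of Ala mutant to GST on the vertical axis. Red marks 1188 genes higher and blue 809 genes lower by at least 2-fold with an interval excluding 1, 5 known targets are circled, and the slanted rows of points at the far left are genes with no count in 1 of the libraries.

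Known targets of the ZFP36 family did not stand above the GST background as a group. Of 43 listed mRNAs, 33 were measured, 1 was higher (3.03%, against 8.41% of all genes) and 2 were lower. The median log2 ratio over the 33 was -0.07, against 0.0019 over all genes, with 16 members above 0 and 17 below. Leaving out genes with fractional counts or shared sequence put the median of the list 0.10 above that of all genes, where the full list lay 0.07 below it. The members were listed with earlier results of these libraries known.

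CSF2, which encodes granulocyte-macrophage colony-stimulating factor, was the known target counted as higher. It had 215 counts with GST, 466 with the mutant and 2710 with wild-type ZFP36L1. The mutant stood above GST by a log2 ratio of 1.20 (0.97 to 1.45), and the wild-type library held more still. The call ended with the deposited TPM (0.95) and, by a small margin, with a fit on GC content and length removed (0.9956). CSF2 has 4 overlapping core sites in the window printed above.

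The other cytokine and chemokine mRNAs with dense sites gave no such value. TNF, the inflammatory cytokine with the most sites beside CXCL2, had 131 counts with GST, 108 with the mutant and 917 with the wild type, a log2 ratio of mutant to GST of -0.19 (-0.57 to 0.19). CXCL2, a neutrophil-attracting chemokine, had 615, 411 and 4899 counts (log2 ratio -0.49, -0.68 to -0.31), although 20.4% of its 31-base words also occur in other genes. CXCL1, its close relative, had 7660, 5231 and 74495 counts (-0.46). In these 3 mRNAs the mutant count lay below that of the tag, for TNF within counting error, while the wild-type count lay far above both.

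CCL20 and PTGS2 were the known targets counted as lower. CCL20, a chemokine for lymphocytes and dendritic cells, had 307 counts with GST, 142 with the mutant and 674 with the wild type (log2 ratio of mutant to GST -1.02, -1.32 to -0.73). PTGS2, the inducible cyclooxygenase of prostaglandin synthesis, had 31, 9 and 129 counts (-1.64, -2.95 to -0.59), and its low counts leave a wide interval. CCL20 fell just short of 2-fold among protein-coding genes only (-0.9982) and stood at -0.61 with the fit removed. PTGS2 was at -0.97 with the fit removed. Its deposited TPM was 0.29 with GST and 0.077 with the mutant, more than 2-fold apart. Only the 0.5 added to each TPM before the ratio was taken brought it to -0.46.

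The mRNAs of the family itself, which carry core sites in their own 3′ UTRs, stayed near the tag. ZFP36L1 had 3012 counts with GST, 2401 with the mutant and 35580 with the wild type (log2 ratio of mutant to GST -0.24, -0.32 to -0.16). ZFP36, which encodes tristetraprolin, had 851, 843 and 3849 counts (0.08, -0.06 to 0.21), and ZFP36L2 had 213, 169 and 869 (-0.24, -0.54 to 0.05). None was 2-fold apart between the mutant and GST.

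Among other known targets, HIF1A, the oxygen-regulated transcription factor, had 788 counts with GST and 460 with the mutant (log2 ratio -0.69, -0.86 to -0.52). E2F1, a transcription factor of entry into DNA synthesis, had 2426 and 2915 (0.35, 0.28 to 0.43), and CCND1, which encodes cyclin D1, had 4777 and 5518 (0.30, 0.24 to 0.35). These differences exceed counting error but not 2-fold. With the fit on GC content and length removed HIF1A stood at -0.075, E2F1 turned to -0.13 and CCND1 stood at 0.42. MCL1, a survival protein of the BCL2 family, and NFKBIA, the inhibitor of NF-kB, had log2 ratios of -0.30 and 0.17.

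**Figure D2:**
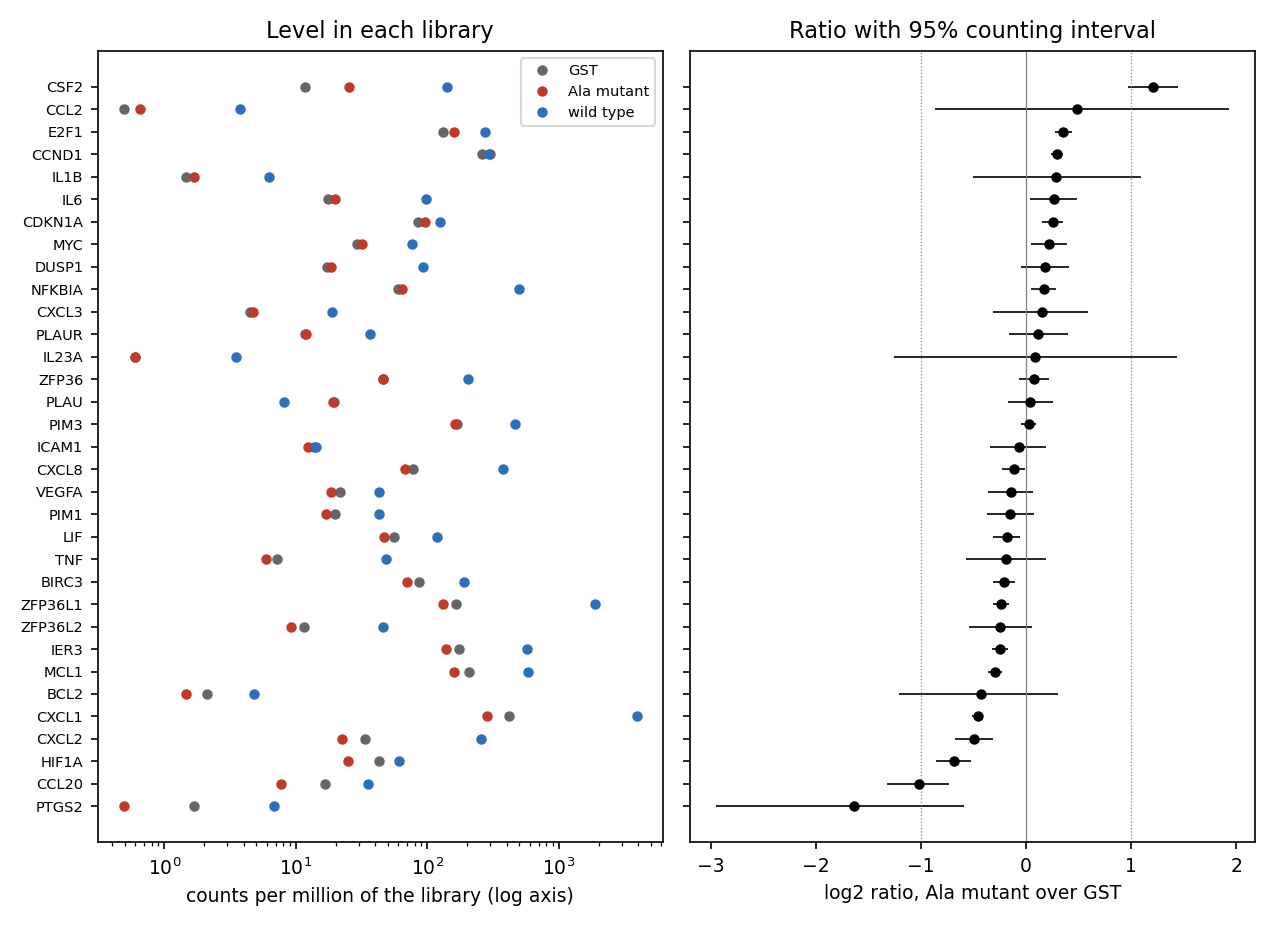
Left, counts scaled to library size (CPM) on a log axis for 33 known targets of the ZFP36 family with GST (grey), the Ala mutant (red) and wild-type ZFP36L1 (blue). Right, log2 ratio of Ala mutant to GST with its exact 95% counting interval, where CSF2 is above and CCL20 and PTGS2 are below the 2-fold lines.

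Over the whole transcriptome, genes with UAUUUAU in the 3′ UTR had lower ratios than genes without it. The 3′ UTR was that of the most abundant protein-coding transcript, known for 11666 of the compared genes, and 3494 of these held the core site. Their median log2 ratio was -0.28, against 0.089 for the 8172 without it, a difference of -0.36. Of genes with a site 66 (1.89%) were higher and 305 (8.73%) were lower, and of those without one 757 (9.26%) and 313 (3.83%). For the longer nonamer UUAUUUAUU, held by 925 genes, the difference was -0.25. Site-bearing 3′ UTRs also had less G and C (median 37.6% against 45.0%) and were longer (2274.5 against 604 bases). After a fit on transcript GC content and length was removed, the difference was -0.034 for the heptamer and -0.004 for the nonamer. Within 5 groups of equal size by 3′ UTR GC content it was -0.24, -0.17, -0.15, -0.18 and -0.30, from lowest to highest. Length was not matched there. In each group the site-bearing 3′ UTRs were longer, with medians of 1854 against 363.5 bases in the lowest and 1192 against 514 in the highest.

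The number of sites gave no steady order. The median log2 ratio was -0.19 with 1 site, -0.37 with 2, -0.42 with 3, -0.39 with 4 and -0.37 with 5 or more, over 2079, 811, 316, 164 and 124 genes. With the fit removed the medians ranged from -0.008 to 0.10. Of the 124 genes with at least 5 sites 4 were higher and 14 were lower. The shares were 8.41% and 5.73% over all genes, and 9.26% and 3.83% over genes without a site. The 4 higher genes were CSF2, AP3B2, PAK3 and SPDYE3, named here after their values were seen. Of these 4 only CSF2 had over 100 counts in both libraries.

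UAUUUAU was ranked among 15416 heptamers, each found in at least 100 of these 3′ UTRs and missing from at least 100, as a description of how far the site stands from other words of the same length. It stood at rank 14564 from the top as measured and at 14029 with the fit removed. The top word was CGCGGGC, with a difference of 0.36, and the bottom word was UUUAAAA, with -0.47. Heptamers made of A and U alone had a median difference of -0.41 and those of G and C alone 0.22, with all mixtures in order between them. UAUUUAU, at -0.36, thus had a value close to that of other words with no G or C.

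**Figure D3:**
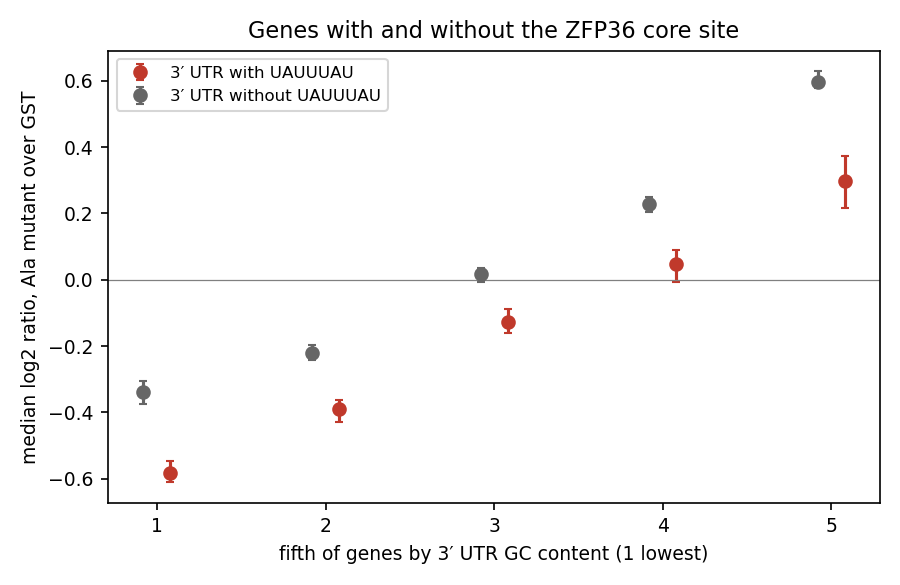
Median log2 ratio of Ala mutant to GST for genes with UAUUUAU in the 3′ UTR (red) and without it (grey), in 5 equal groups of genes by 3′ UTR GC content, with bars giving the 95% order-statistic interval of the median over genes. Both medians rise with GC content, and in each of the 5 groups the genes with a site lie lower, by 0.15 to 0.30.

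As shares of a library, the 4878 genes with a core site in the 3′ UTR took 13.3% of matched counts with GST, 11.2% with the mutant and 26.1% with the wild type. Genes with the nonamer took 3.22%, 2.73% and 6.29%. The exact 95% binomial interval for GST ran from 13.24% to 13.28% and that for the mutant from 11.19% to 11.22%, for the genes with a core site. By this measure the mutant library held a smaller share of site-bearing mRNA than the tag alone, and both held less than the wild type. A share of matched counts amounts to scaling to total counts, so it moves with any abundant class of RNA.

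Of the transcript properties measured, GC content followed the ratio of mutant to GST most closely. Across genes, the log2 ratio had a Spearman correlation of 0.54 with transcript GC content, of 0.56 with 3′ UTR GC content and of 0.49 with coding GC content. With transcript length it was -0.29 and with 3′ UTR length -0.36. Genes are not independent replicates, and all points share the same pair of libraries. Genes were divided into 10 equal groups by GC content. In the group with the least G and C (up to 38.2%) the median log2 ratio was -0.53, with 0.848% higher and 16.2% lower. In the group with the most (from 61.1%) it was 0.68, with 30.4% higher and 1.27% lower. The groups between them followed in order. Transcripts both short and rich in G and C stood highest: with 5 groups by GC content and 5 by length, the shortest genes of highest GC content had a median of 0.82 and 36.5% of them were higher, while the longest at the same GC content had 0.14. At the lowest GC content the shortest had -0.25 and the longest -0.51. A cubic fit on GC content and log2 length accounted for 20.3% of the variance of the log2 ratio, and with it removed 596 genes were higher (4.22%) and 584 lower (4.13%).

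**Figure D4:**
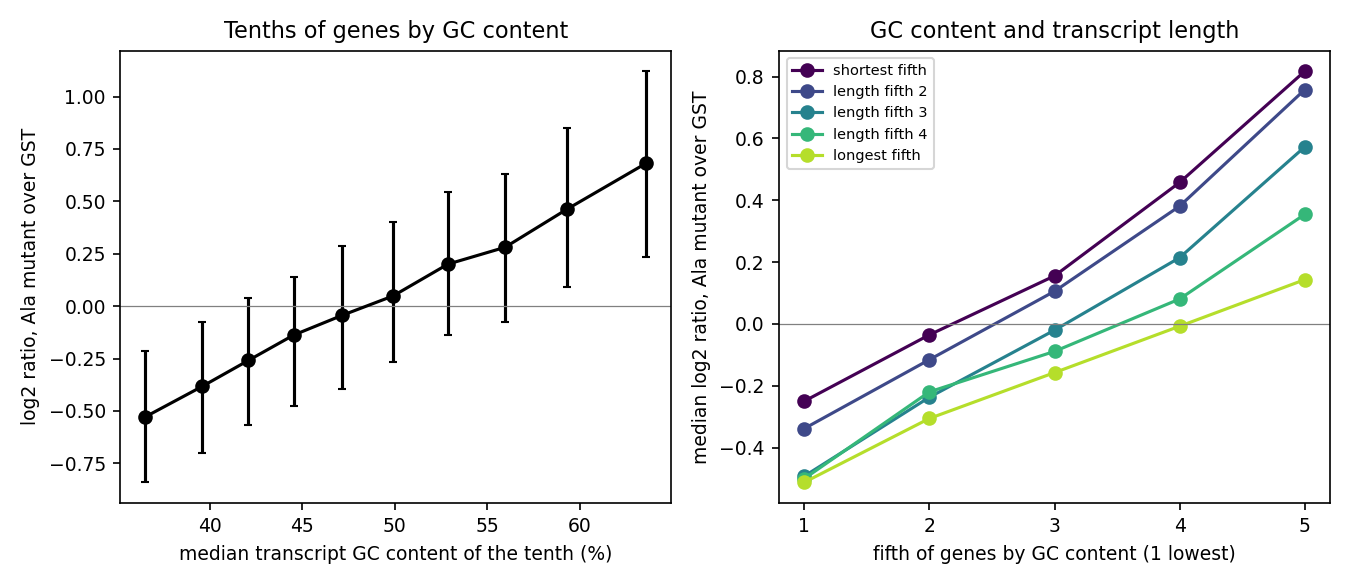
Left, median log2 ratio of Ala mutant to GST in 10 equal groups of genes by transcript GC content, with bars from the first to the third quartile of genes. Right, median log2 ratio in 5 equal groups of genes by GC content, 1 line for each of 5 groups by transcript length. The ratio rises with GC content on each line, and the shortest transcripts lie above the longest throughout.

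Where the largest ratios came from matters for reading single genes. Of 134 genes at least 8-fold apart, 12 were among the 4565 genes whose summed counts were within 0.05 of a whole number in both libraries and whose main transcript shared under 10% of its 31-base words with other genes, and 122 were among the other 9565. Of the 4565, 357 were higher (7.82%) and 255 lower (5.59%). The protein-coding genes farthest above GST were PCDHGB6, with 0.59 counts for GST and 657 for the mutant, USP28, with 0.02 and 187, NCS1, with 1 and 184, TRMT1L, with 1.87 and 153, ZFHX4 and SLC26A10, each with 0 for GST, ADAR, with 67.9 and 1516, HPS4, with 11.2 and 309, UPK3BL1, AC005041.1, ST20-MTHFS and PPP4R3A. Those farthest below were PCDHGB1, with 476 and 2.59, UBR7, with 198 and 0, ADIPOR1, with 147 and 0, ATL3, DPP3, with 415 and 5.0, DNAJC25-GNG10, ANP32E, with 441 and 14.8, RNASE4, BTN3A3, KIF2C, with 80.4 and 1.03, TDP2 and PIK3R3. Many of these values are fractions that the quantification divided between overlapping transcripts. Such a value can change when the same reads are divided differently, so these 24 genes are given as uncertain.

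The same holds for the farthest genes of other classes, most of them pseudogenes. AC116533.1, AC026403.1, TECRP1, H3F3AP4, AC027290.1 and AC099560.2 lay farthest above, and BANF1P3, ATP5F1EP2, AC234582.2, FRG1BP, AC079329.1 and RPS11P5 farthest below. Those above shared from 86.2% to 100% of their 31-base words with other genes, and those below from 28.0% to 95.4%. Of 650 processed pseudogenes, copies of mRNAs inserted into the genome, 163 were higher (25.1%) and 42 lower (6.46%), with a median log2 ratio of 0.46. Over all genes 8.41% were higher and 5.73% lower. The median count of these pseudogenes was 21.0, against 237 over all genes. In the fifth of all genes with the fewest counts, 15.9% were higher and 10.8% lower. Counts of processed pseudogenes cannot be told apart from those of the parent genes where the sequence is shared.

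Restricting the view to protein-coding genes with whole counts, little shared sequence and a mean of at least 100 counts left 3121 genes, a choice made after the data had been seen. Of these 3121 genes 204 were higher and 118 lower, whereas 1188 (8.41%) and 809 (5.73%) of all 14130 genes were. The higher ones of the 3121 had a median GC content of 62.6% and a median length of 982 bases. Of these 204, 9 held UAUUUAU in the 3′ UTR. The lower ones had 38.6% and 3582 bases, and 72 of the 118 held it. In the whole set 942 of the 3117 with a known 3′ UTR did.

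The 15 genes farthest above GST in that set, by the interval bound nearest 0, had a median GC content of 64.2% and a median length of 663 bases. TMEM160, a membrane protein of mitochondria, had 569 counts with GST, 2125 with the mutant and 68 with the wild type (log2 ratio of mutant to GST 1.99, 1.86 to 2.13). TSPO, a cholesterol-binding protein of the outer mitochondrial membrane, had 938, 3244 and 114 counts (1.88). NME3, a nucleoside diphosphate kinase, had 502, 1884 and 119 (1.996). In each of them the mutant count was the highest of the 3 libraries and the wild-type count the lowest.

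MRPL55, a protein of the mitochondrial ribosome, had 393 counts with GST and 1302 with the mutant (1.82), and ROMO1, a small inner-membrane protein of mitochondria, had 1234 and 3600 (1.63). FBXW5, an F-box protein of ubiquitin ligases, had 560 and 1765 (1.74). LGALS1, the sugar-binding protein galectin-1, was the most abundant of the 15, with 15288 and 41116 counts (1.52, 1.49 to 1.54). The others were ISOC2, HES4, MIIP, SIGIRR, WDR18, PARD6A, RASSF7 and COMTD1, with log2 ratios from 1.60 for WDR18 to 2.004 for HES4. Of the 15 only HES4, a transcriptional repressor of the Notch pathway, held a core site in the 3′ UTR. With the fit on GC content and length removed, TMEM160 stood at 0.78, LGALS1 at 0.92 and ROMO1 at 0.97, under 2-fold, and NME3 at 1.08 and TSPO at 1.18.

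The 15 genes farthest below, by the same ranking, had a median GC content of 37.4% and a median length of 3312 bases. HMGN5, a nucleosome-binding protein, had 205 counts with GST, 29 with the mutant and 47 with the wild type (-2.71, -3.35 to -2.17). BAZ1A, a subunit of chromatin remodelling complexes, had 1033, 202 and 815 (-2.26, -2.49 to -2.05). ACADM, the medium-chain acyl-CoA dehydrogenase of fatty acid oxidation, had 1627, 410 and 4259 (-1.90, -2.06 to -1.74). The mutant count was the lowest of the 3 in each of these, while the wild type lay below GST for HMGN5 and BAZ1A and above it for ACADM.

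PLOD2, a collagen lysyl hydroxylase, had 905 counts with GST and 274 with the mutant (-1.63), and EFR3A, a scaffold of a lipid kinase at the plasma membrane, had 2864 and 963 (-1.48). CXCL6, a chemokine that attracts neutrophils, had 160 and 43 (-1.79). The others were SGPP1, FOXN2, LRRC40, CRIM1, TWISTNB, UFL1, ARFIP1, PKD2 and FUBP3, with log2 ratios from -1.58 to -1.81. Of the 15, 7 held a core site. With the fit removed, PLOD2 stood at -0.89 and EFR3A at -0.78, under 2-fold, while HMGN5 (-2.51), BAZ1A (-1.75) and ACADM (-1.39) stayed past it.

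Of the 5 most abundant protein-coding genes counted as higher, 4 encode ribosomal proteins. RPS3 had 49552 counts with GST and 98313 with the mutant (log2 ratio 1.08), RPS15 had 42344 and 87559 (1.14) and RPS14 had 29116 and 72659 (1.41). TMSB10, an actin-binding peptide, had 32360 and 64922 (1.09). Each of these was lowest in the wild-type library. HNRNPA2B1 and HNRNPD, heterogeneous nuclear ribonucleoproteins that bind pre-mRNA and AU-rich RNA, had 29994 and 14048 counts (-1.005) and 12612 and 5496 (-1.11). NUCKS1, a nuclear chromatin protein, had 13026 and 4835 (-1.34). HNRNPA2B1 fell just short of 2-fold with a minimum of 100 counts (-0.9949) and among protein-coding genes only (-0.9829). With the fit on GC content and length removed HNRNPA2B1 stood at -0.80, HNRNPD at -0.91 and NUCKS1 at -0.72. RPL36A-HNRNPH2 is a read-through of neighbouring genes (-1.03), and MT-ND6 is the mRNA of the mitochondrial light strand (-1.30).

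Of 79 measured cytosolic ribosomal protein mRNAs, 9 were higher and 0 lower, 66 lay above a log2 ratio of 0, and their median was 0.40. The share called (11.4%) is close to the 8.41% of all genes. Members differed among themselves: RPL38 stood at -0.47, RPLP0, of the ribosomal stalk, at 1.23 and RPS28 at 1.82. The list took 13.2% of matched counts with GST, 17.3% with the mutant and 4.93% with the wild type. Most members have pseudogene copies, and with the fit on GC content and length removed the median was 0.21 and 3 of the 9 stayed at least 2-fold higher.

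Of 45 nuclear-encoded subunits of the respiratory chain and ATP synthase, 8 were higher (17.8%, against 8.41% of all genes) and 1 lower, with a median of 0.35. The higher ones were the core complex I subunits NDUFS8 (1073 counts with GST, 4164 with the mutant, 2.04), NDUFS7 (581 and 1934, 1.82) and NDUFV1 (1242 and 3176, 1.44), the accessory subunit NDUFB7 (1.34), UQCRC1 and CYC1 of complex III (1.22 and 1.29), COX7A2 of complex IV (1.12) and ATP5F1D of the ATP synthase (1.34). SDHD, an anchor subunit of complex II, was the lower one (4131 and 1735, -1.16). The most abundant members, COX6B1 of complex IV (8081 and 14352, 0.92) and UQCRH of complex III (9858 and 9513, 0.04), were under 2-fold. Subunits of the same complex thus lay on both sides of GST. NDUFS8, NDUFS7, NDUFV1, UQCRC1, CYC1, NDUFB7 and ATP5F1D had transcript GC contents from 58.4% to 67.3%, COX7A2 had 45.7% and SDHD 41.0%. With the fit on GC content and length removed, 2 of the 8 stayed at least 2-fold higher, NDUFS8 (1.37) and COX7A2 (1.04), and SDHD stood at -0.89.

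The mitochondrial ribosome showed the same width. Of 45 members 6 were higher (13.3%, against 8.41% of all genes) and 0 lower, with a median of 0.29. With the fit removed the median was 0.085 and 0 of the 6 stayed at least 2-fold higher. MRPL12 had 1919 counts with GST and 5775 with the mutant (1.68) and MRPL41 had 1310 and 3590 (1.54), whereas the most abundant members, MRPS15 (6813 and 5726, -0.16) and MRPL3 (6088 and 4498, -0.35), lay below 0.

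The mRNAs made inside mitochondria went the other way. All 13 mitochondrially encoded mRNAs lay below 0, with a median of -0.53, and 2 were counted as lower, MT-ATP8 (1192 counts with GST, 376 with the mutant, -1.57) and MT-ND6 (10589 and 4038, -1.30). MT-CO1 and MT-CO3, subunits of cytochrome oxidase and the most abundant of them, had log2 ratios of -0.26 and -0.21. The median of the 13 mRNAs lay 0.54 below that of all genes. The ribosomal RNAs of the mitochondrion were split: MT-RNR2 had 367964 counts with GST and 250558 with the mutant (-0.47), and MT-RNR1 had 34028 and 48090 (0.59). The mitochondrial genome as a whole took 10.6% of the GST library, 7.53% of the mutant library and 15.5% of the wild-type library.

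Lists of other functions gave few calls, and each is set beside 8.41% higher and 5.73% lower over all genes. The totals that omit the most abundant genes moved every log2 ratio by -0.14, so a list median between 0 and 0.14 changes sign under them. Of 20 interferon response genes 4 were higher, among them ISG15, a ubiquitin-like modifier (295 counts with GST, 844 with the mutant, 1.60), and IFI35 (229.1 and 607.1, 1.49), and 1 was lower, OAS1 (28.8 and 13, -1.03). OAS3, a sensor of double-stranded RNA and an abundant member, had 2513 and 1276 (-0.89). Of 9 measured replication-dependent histone genes 2 were higher, HIST2H2AA3 (1.69) and HIST2H2AC (1.22). Histone mRNAs of this kind end in a stem-loop in place of a poly(A) tail, and the most abundant, HIST1H1C, had 441 and 364 counts (-0.19). Of 8 metallothioneins, small metal-binding proteins, MT1H was higher (8.11 and 22.2, 1.49), while MT2A had 87175 and 157173 counts (0.94) and MT1E 11078 and 17946 (0.79), and the median was 0.74.

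Glycolysis had 0 of 17 members called, as the 2-fold rule counts them, with a median of 0.18. GAPDH had 74476 counts with GST and 124535 with the mutant (0.83), PKM had 41847 and 42139 (0.10) and PFKL 732 and 1273 (0.89). Of 30 lysosomal genes 0 were called, with a median of 0.07, and of 30 proteasome subunits 1 was higher, PSMB6 (2528 and 4950, 1.06), with a median of 0.04. Of 20 aminoacyl-tRNA synthetases 1 was higher, VARS, which charges valine tRNA (1819 and 3453, 1.01). Of 35 translation factors EIF3G was higher (1773 and 3707, 1.15) and EIF5B lower (6910 and 2255, -1.53), while EEF1A1, the abundant elongation factor, stood at 0.21.

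The zinc finger and mitosis lists had medians below 0. Of 82 ZNF zinc finger genes, listed mostly for KRAB-type repressors though not all encode a KRAB domain, 2 were higher and 6 lower, with a median of -0.21 at a median GC content of 41.6%, and with the fit removed the median was 0.02. ZNF254 had 110 counts with GST and 9.80 with the mutant (-3.33) and shares sequence with its relatives, and ZNF146, the most abundant, had 1427 and 827 (-0.70). Of 30 mitosis genes 1 was higher, CDC20, an activator of the anaphase-promoting complex (4922 and 10056, 1.12), and 3 were lower, KIF2C, ANLN, which organises the cleavage furrow (1914 and 867, -1.05), and TTK, a checkpoint kinase (664 and 303, -1.04). The median of that list was -0.28, and with the fit removed -0.0007.

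Chaperones and matrix genes were mostly under 2-fold. Of 23 cytosolic chaperones HSPB1, a small heat shock protein, was higher (6171 and 12784, 1.14), and DNAJA1, a partner of HSP70, had 1956 and 998 counts (-0.88). Of 19 chaperones of the endoplasmic reticulum SDF2L1 was higher (427 and 986, 1.30). Of 24 matrix and integrin genes 3 were lower, FN1, which encodes fibronectin (573 and 263, -1.03), COL12A1 (40 and 12, -1.61) and ITGA2 (49.7 and 16.2, -1.50), and COL6A2 was higher (77 and 148, 1.03). In the synthesis of cholesterol MVD was higher (1324 and 3002, 1.27), while SC5D, an enzyme of the last steps of that pathway, was lower (785 and 308, -1.26).

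Structural and housekeeping mRNAs set the scale of the background. ACTB, which encodes beta-actin and had the most counts of any nuclear gene, had 812090 counts with GST, 569269 with the mutant and 802573 with the wild type (-0.42). The keratins KRT7 (1669 and 3186, 1.02) and KRT8 (3054 and 5785, 1.01) were higher. LMNB2, a nuclear lamin, was lower (607.2 and 126.8, -2.17), and the wild-type library held 0.015 counts of it. The counts of LMNB2 are fractions, which can change when the same reads are divided differently between transcripts. Its ratio is therefore given as uncertain. Of 14 housekeeping genes 2 were higher, RPLP0 among them, and the median was -0.03. Of 12 markers of leukocytes, erythroid cells and hepatocytes only LYZ reached the count limit (13.5 and 12.7 counts). PTPRC, HBB, ALB and the others of that list had at most 4 counts in either library.

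Several of these calls lay close to 2-fold and ended under another scaling. With totals that omit the most abundant genes, RPS3, RPS15, TMSB10, CDC20, HSPB1, KRT7, KRT8, PSMB6 and VARS fell short of it, with log2 ratios from 0.87 to 0.9978, while DNAJA1 (-1.02) and OAS3 (-1.03) passed it. With the deposited TPM, after 0.5 was added to each value, MVD, HIST2H2AC and FN1 also fell short (0.91, 0.95 and -0.32). COL12A1 (-0.53), ITGA2 (-0.40) and ZNF254 (-0.90) fell short only through that added value. Their TPM itself was more than 2-fold lower with the mutant than with GST. COL12A1 had 0.44 with GST and 0.15 with the mutant, ITGA2 0.26 and 0.078, and ZNF254 1.83 and 0.75. With the fit on GC content and length removed, ISG15 stood at 0.78, HIST2H2AA3 at 0.97, HIST2H2AC at 0.44, CDC20 at 0.58, ANLN at -0.40, TTK at -0.43, EIF3G at 0.32, SDF2L1 at 0.46, EIF5B at -0.90 and SC5D at -0.66, each under 2-fold.

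**Figure D5:**
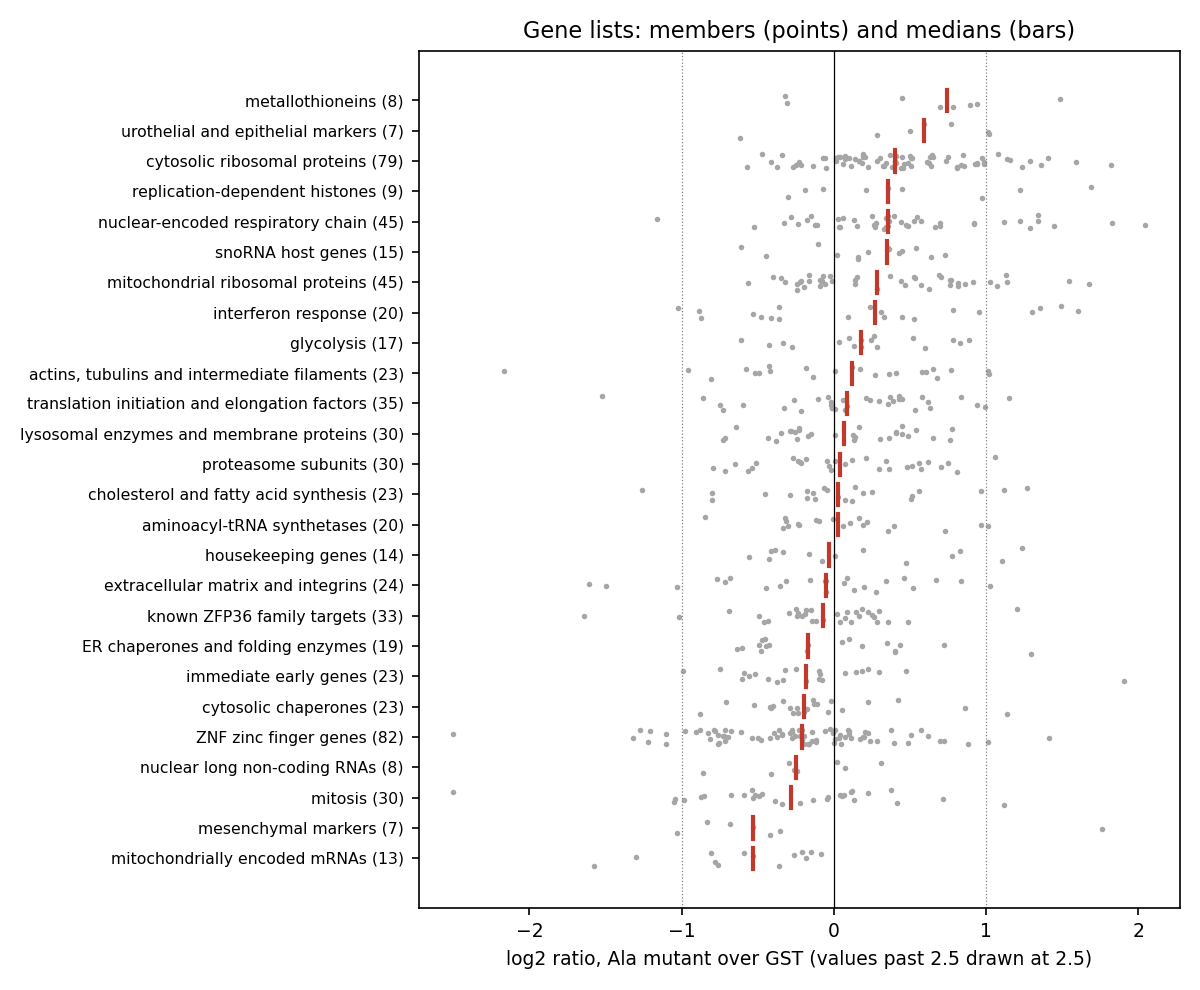
Log2 ratio of Ala mutant to GST for the measured members (grey points) and their median (red bar) in each gene list, with the number of measured members in brackets and dotted lines at 2-fold. Values past 2.5 in either direction are drawn at 2.5, and the 13 mitochondrially encoded mRNAs are all below 0.

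Non-coding RNAs showed no single direction. Of 725 antisense genes 74 were higher (10.2%) and 57 lower (7.86%), against 8.41% and 5.73% of all genes. Of 465 long intergenic RNAs 51 were higher (11.0%) and 43 lower (9.25%). The median count was 36.3 for the antisense genes and 26 for the long intergenic RNAs, against 237 over all genes. Since the counting is not stated to use strand, antisense counts may hold reads of the gene on the other strand. The 15 measured host genes of small nucleolar RNAs had 0 calls and a median of 0.35, with 12 above 0, among them GAS5 (2695 and 3949, 0.64) and ZFAS1 (4136 and 5657, 0.54). The median of 8 nuclear long non-coding RNAs was -0.25. BCYRN1, a short cytoplasmic RNA related to Alu repeats, had 5510 counts with GST, 972 with the mutant and 157 with the wild type (-2.41, -2.51 to -2.31), and 32.9% of its 31-base words occur in other genes. RN7SL2, of the signal recognition particle, had 2.79 and 17.6 counts.

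Shares of the largest annotated transcript classes differed little, and some small classes differed more. Transcripts annotated for non-stop decay held 0.0667% of matched counts with GST and 0.125% with the mutant, and unprocessed pseudogenes 0.515% and 0.364%. Only 16 non-stop decay transcripts averaged at least 10 counts, of which 5 were higher and 1 lower, with a median log2 ratio of 0.74. For unprocessed pseudogenes it was 39, with 5 higher, 4 lower and a median of 0.0015. Their share thus fell without a shift of that median. Transcripts annotated as retained intron held 5.86% of matched counts with GST and 6.38% with the mutant, those annotated for nonsense-mediated decay 4.40% and 4.92%, sense-intronic transcripts 0.0346% and 0.0281%, and protein-coding transcripts 78.1% and 77.3%. Within the same gene, the retained-intron class exceeded the coding class by a median log2 difference of 0.13 over 2184 genes, 1177 of them above 0. For nonsense-mediated decay it was 0.20 over 1297 genes, 724 above 0, and for the processed-transcript class 0.23 over 1610 genes, 938 above 0. Counts of single transcripts are less certain than those of genes, and by the same rule 18.6% of 27957 single transcripts were higher and 14.9% lower, 33.6% in all.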

How the data were processed

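Sequencing was on a BGISEQ-500, with 1 library per pull-down. The tools named are kallisto and DESeq2 and the build is hg19, per the submitters' processing notes, with no version, role or annotation given. Per the file headers, each deposited table holds an estimated count, a TPM value, a length and an effective length for each of 196354 transcripts. No fold change of the authors was used.

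Transcripts were matched by identifier to GENCODE 29 (GRCh38), which held 181854 (92.6%), and their estimated counts were summed to genes. Transcripts not matched held 3.92% of counts for GST and 4.20% for the mutant. Printed coordinates and sequences are from GENCODE 29. Counts were scaled with TMM over the 2 libraries (edgeR 4.0.16, R 4.3.3; factors 1.03 and 0.971), with a prior count of 0.5, and each ratio has an exact Clopper-Pearson 95% interval. Calling was run on simulated counts drawn with counting error only, so that check does not cover the spread between repeat pull-downs. No floor-based fold is printed: genes at 0 are given as counts. PCR copies are not independent molecules, so intervals cover counting error only.

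The gene lists and members were chosen with earlier results of these data known. Named genes are the 12 coding genes farthest above and below 0 by the interval bound nearest 0, the 5 with most counts and 6 of other classes in each direction, called known targets and the 4 with most sites, and up to 4 from each other list. Some genes that this rule selects are not reported here. Genes with whole counts and little shared sequence were ranked after the data had been seen. Alternatives covered scaling with DESeq2 1.42.0 size factors or totals, deposited TPM, the count minimum, gene classes, single transcripts and a fit on GC content and length. For deposited TPM, 0.5 was added to each value, and a call needed a ratio of at least 2-fold with no counting interval. The added value pulls ratios of genes with low TPM toward 1.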

Additional observations from a re-analysis of the deposited data

Results flagged for a closer look

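Of the 14500 transcript identifiers that GENCODE 29 does not hold, 1856 averaged at least 10 counts over both libraries, and 369 of these (19.9%) were higher with the Ala mutant than with GST, while 294 (15.8%) were lower. They are listed because they lie outside the gene comparison and some of them had more counts with the mutant than with the tag control. Their median log2 ratio was 0.04. Single transcripts that were matched had 18.6% higher and 14.9% lower by the same rule.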

How the results depend on the processing

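With 1 library per group no library could be left out. No paired analysis was possible because each group has 1 library. The counts of 1188 genes higher and 809 lower became 573 higher with deposited TPM, 587 and 335 with a minimum mean of 100 counts, 5213 and 4177 over single transcripts, 596 higher with the fit on GC content and length removed, and 357 and 255 among genes with whole counts and little shared sequence (an alternative added after the data had been seen). The minimum of 100 counts, the single transcripts and the restriction to whole counts change how many features were tested. The difference of -0.36 between genes with and without UAUUUAU was -0.24 with TPM, -0.45 over single transcripts, -0.034 with the fit removed and -0.40 among genes with whole counts. The Spearman correlation of 0.54 with GC content was 0.51 with TPM, 0.30 with no minimum count, 0.64 with a minimum of 100, 0.59 for protein-coding genes, 0.56 without pseudogenes and gene families, 0.37 over single transcripts and 0.60 among genes with whole counts. The cause of these shifts was not tested further. The median of the small nucleolar RNA hosts relative to all genes turned to -0.50 for protein-coding genes only, where 2 members were left. Scaling to totals without the most abundant genes and deposited TPM each moved the median of all genes by -0.14. Of 179 named or listed genes none went from a call in one direction to the other, although uncalled genes such as E2F1 (-0.13), UQCRH (-0.086), RPL35 (-0.17) and ITGB1 (0.21) changed sign with the fit removed. DESeq2 size factors kept the call of all 179, removal of the fit ended 47 calls and TPM ended 23 and added 3. Some of those 23 ended only because 0.5 was added to each TPM, among them PTGS2, COL12A1, ITGA2 and ZNF254. Ratios of genes with few counts are limited by depth, and the spread between repeat pull-downs is unknown.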
